A study of Mus musculus with 30 samples.

Results

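The transcripts of 7 subunits of the GABA-A receptor were followed in mouse amygdala, with blood as a background tissue: Gabra2, Gabra3, Gabra4, Gabra5, Gabrb1, Gabrb2 and Gabrg3. They were taken by their symbols from the deposited expression table, where all 7 were found among 23303 gene entries, and all 7 were above the minimum level for testing, as were 13508 entries in all. The mice were male C57BL/6J animals aged 2 to 3 months. HC mice were handled controls kept in the home cage. FC mice were killed 2 h after auditory fear conditioning, in which a tone was paired with a foot shock. Immo+FC mice were restrained for 2 h about a week before the same conditioning. No group was immobilized without conditioning, and each library came from a pool of 2 mice. There were 6 HC, 6 FC and 4 Immo+FC amygdala libraries and 4 HC, 5 FC and 5 Immo+FC blood libraries. The amygdala tissue was a bilateral punch centred on the basolateral nucleus, which can take in neighbouring nuclei.

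GABA-A receptors are chloride channels built from several subunits around a central pore, and they carry most fast inhibition in the brain. The common form joins alpha, beta and gamma subunits. GABA binds where a beta subunit meets an alpha subunit, and benzodiazepines bind where an alpha subunit meets a gamma subunit, so the alpha subunit sets much of the drug response. In the amygdala, inhibition through these receptors restrains the output of principal neurons and takes part in the learning and extinction of fear.

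Amygdala libraries held 23148078 to 31366290 sequences and blood libraries 9081977 to 25892322. The 5 neuronal markers summed to between 1412 and 1758 FPKM in every amygdala library, with Snap25 at 775 to 998 FPKM, and the ranges of the 3 groups overlapped. FPKM is the number of fragments per kilobase of transcript and per fixed number of mapped fragments. Levels of different genes can thus be set beside each other only as far as the transcript lengths used hold. The libraries did not divide cleanly by their labels. HC libraries 1 and 2 and Immo+FC library 1 stood with the 6 FC libraries in a score of long transcripts, the mean log2 level of 317 genes with a transcript over 10000 bases, centred on all libraries. The score was −0.18 and −0.13 in HC libraries 1 and 2, −0.22 in Immo+FC library 1 and −0.32 to −0.09 in FC. It was 0.21 to 0.26 in the other HC libraries and 0.21 to 0.24 in the other Immo+FC libraries. Grin2b, a glutamate receptor subunit with a long transcript, had 0.592 to 2.53 FPKM in the low libraries and 5.56 to 8.76 FPKM in the high ones. Results that rest on these libraries are given with and without them.

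Of the 7 subunits, Gabrb1 and Gabrg3 varied most between amygdala libraries and Gabra4 varied least. The SD over 16 libraries was 30.2% of the mean for Gabrb1, 54.4% for Gabrg3 and 5.78% for Gabra4, and it was 7.82 to 15.5% for the other four. Gabrb1 and Gabrg3 also have the longest annotated transcripts of the 7, 13737 and 9767 bases, of which 12231 and 7951 lie after the stop codon. The next longest, that of Gabra2, has 5852 bases. Annotations are those of GENCODE on GRCm38, the build also called mm10 to which the reads were aligned.

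The genes of the 7 subunits lie in 4 places. On chromosome 5, Gabra2 spans 70957597 to 71095849 on the minus strand, Gabra4 spans 71569749 to 71658308 on the minus strand and Gabrb1 spans 71658113 to 72149037 on the plus strand. Gabra4 and Gabrb1 are thus read away from each other, and their ends overlap over 196 bases, 46 of them exonic in both. On chromosome 7, Gabrg3 spans 56716465 to 57387188 and Gabra5 spans 57407672 to 57510059, both on the minus strand. Gabra5 shares 148 exonic bases with the antisense gene Gm9962. Gabrb2 spans 42419757 to 42629028 on the plus strand of chromosome 11, and Gabra3 spans 72432681 to 72656848 on the minus strand of chromosome X. No strand-specific counting is described, so reads from bases shared with a gene on the other strand cannot be told apart.

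The promoters of Gabrb1 and Gabrg3 are shown because these members moved together across libraries, and that of Gabra4 because it is the close neighbour of Gabrb1 that did not follow it. The windows of 300 bases lie across the start site of RefSeq on GRCm38.p6 and are written 5′ to 3′ on the strand of the gene. They are chr5:71657671-71657970 on the plus strand for Gabrb1, which has another start site further along, chr7:57387166-57387465 on the minus strand for Gabrg3 and chr5:71658259-71658558 on the minus strand for Gabra4. The Gabrb1 window ends before 71658113, where the gene starts in GENCODE, so RefSeq and GENCODE place its start differently. Capitals mark the letters GGGCGG, the core of an Sp1 motif, on either strand.
Gabrb1: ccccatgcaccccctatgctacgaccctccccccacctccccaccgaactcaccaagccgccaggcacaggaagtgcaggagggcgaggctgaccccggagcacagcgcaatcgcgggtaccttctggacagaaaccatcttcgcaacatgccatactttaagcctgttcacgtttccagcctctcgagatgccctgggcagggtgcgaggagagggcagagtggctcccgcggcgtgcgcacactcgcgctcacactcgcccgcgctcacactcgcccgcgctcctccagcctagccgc
Gabrg3: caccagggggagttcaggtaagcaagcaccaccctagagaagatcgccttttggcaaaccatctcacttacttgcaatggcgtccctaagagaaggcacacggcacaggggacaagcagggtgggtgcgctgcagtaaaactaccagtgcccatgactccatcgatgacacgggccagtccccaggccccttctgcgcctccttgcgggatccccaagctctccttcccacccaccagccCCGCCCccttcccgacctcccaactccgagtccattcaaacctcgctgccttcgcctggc
Gabra4: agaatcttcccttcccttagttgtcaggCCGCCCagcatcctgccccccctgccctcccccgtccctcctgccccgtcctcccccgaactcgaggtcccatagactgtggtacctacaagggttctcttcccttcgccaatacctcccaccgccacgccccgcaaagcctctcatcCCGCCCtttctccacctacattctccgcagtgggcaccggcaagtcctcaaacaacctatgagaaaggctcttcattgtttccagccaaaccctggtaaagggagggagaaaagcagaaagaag
The Gabrb1 window had no GGGCGG, the Gabrg3 window had 1 and the Gabra4 window had 2, and 35.7% of 32851 promoter windows held at least 1. None of the 3 windows held TATAAA, the core of a TATA box, which 13.6% of all windows held. None held TGACG, part of the cyclic AMP response element, which 20.8% of all windows held. Searches covered both strands, and a match describes the letters only. The Gabrb1 window had 25 CG pairs and 66.0% G and C, against medians of 7 and 52.7% over all windows. The Gabrg3 window had 13 CG pairs and the Gabra4 window 12.

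Among the 4 alpha subunits, Gabra3 had the highest level, and Gabra5, Gabra2 and Gabra4 lay close together below it. Over 16 amygdala libraries Gabra3 averaged 52.5 ± 5.52 FPKM (SD, n = 16), Gabra5 24.7 ± 1.93, Gabra2 24.6 ± 3.81 and Gabra4 22.8 ± 1.32. Gabra3 was above every other alpha subunit of the 7 in all 16 libraries, while Gabra5 was above Gabra2 in 9 and Gabra2 above Gabra4 in 10. The order of these 3 was thus within their spread.

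Gabrb2 was the more abundant of the 2 beta subunits followed here, and Gabrg3 had the lowest level of all 7. Gabrb2 averaged 27.9 ± 3.10 FPKM (SD, n = 16), Gabrb1 6.87 ± 2.07 and Gabrg3 1.41 ± 0.77. The ranges of Gabrb2, Gabrb1 and Gabrg3 did not overlap.

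The first comparison, FC with HC, asks what differed 2 h after fear conditioning. Gabrb2, Gabrb1 and Gabrg3 had lower means in FC, 0.83, 0.66 and 0.48 times those of HC, and the means of the alpha subunits differed by at most 8.55%. No member passed an adjusted p of 0.05 in limma with the method of Benjamini and Hochberg over 13508 genes, where 2 genes did, 0.0148% of those tested. At an unadjusted p under 0.05 there were 3 of 7 members, all lower in FC, where 13.1% of all genes reached it. In bulk tissue, fewer cells of a type and less RNA per cell cannot be told apart.

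Gabrb2 encodes a beta subunit found in many receptors of the forebrain. It had 28.6 to 32.6 FPKM in HC with a median of 30.5, 24.2 to 27.3 FPKM in FC with a median of 25.2, and 23.02, 28.3, 26.6 and 32.0 FPKM in Immo+FC libraries 1 to 4. Every HC library was above every FC library, which was the case for 1 of 7 members and 1.39% of all genes in either direction. The Immo+FC libraries reached from below the FC range into the HC range. The log2 fold change of FC against HC was −0.27 (standard error 0.06, adjusted p = 0.106 in limma). It was −0.30 (adjusted p = 0.0284 in limma) without HC libraries 1 and 2, and −0.27 (adjusted p = 0.0376 in limma) without Immo+FC library 1, which enters only the shared variance. HC libraries 1 and 2, at 29.7 and 28.6 FPKM, were also above all FC libraries. HC library 2 and Immo+FC library 1 had the lowest Gabrb2 levels of their groups, so the values without these libraries are no independent evidence. Over all genes, 357 passed without HC libraries 1 and 2, against 2 with all libraries.

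Gabrb1 encodes another beta subunit. It had 4.99, 4.99, 9.68, 9.77, 9.83 and 8.62 FPKM in HC libraries 1 to 6. In FC the values were 4.88 to 5.75 FPKM with a median of 5.24, and in Immo+FC libraries 1 to 4 they were 4.79, 8.25, 8.92 and 8.49 FPKM. The libraries fell into a low range and a high range with no value between 5.75 and 8.25 FPKM, and the low range held HC libraries 1 and 2, all of FC and Immo+FC library 1. HC and FC therefore overlapped. The log2 fold change of FC against HC was −0.53 (standard error 0.19, adjusted p = 0.204 in limma), and without HC libraries 1 and 2 it was −0.84 (standard error 0.13, adjusted p = 0.00215 in limma). Those libraries had the lowest Gabrb1 levels of HC and a low score of long transcripts, which counts Gabrb1 among its 317 genes. Leaving them out therefore had to enlarge the difference, and the value without them is no test of it.

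Gabrg3 encodes the least common of the gamma subunits. It had 0.814, 0.744, 1.63, 2.28, 2.096 and 2.11 FPKM in HC libraries 1 to 6. In FC the values were 0.425 to 1.08 FPKM with a median of 0.803, and in Immo+FC libraries 1 to 4 they were 1.155, 1.95, 3.13 and 2.02 FPKM. The same HC libraries 1 and 2 were low, within the range of FC. The log2 fold change of FC against HC was −0.88 (standard error 0.29, adjusted p = 0.173 in limma) on the log2(FPKM + 0.1) scale, which understates changes at such low levels, and without HC libraries 1 and 2 it was −1.30 (standard error 0.23, adjusted p = 0.00565 in limma). Those libraries had been singled out in earlier results of these data, so the values without them are no independent evidence.

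**Figure D1:**
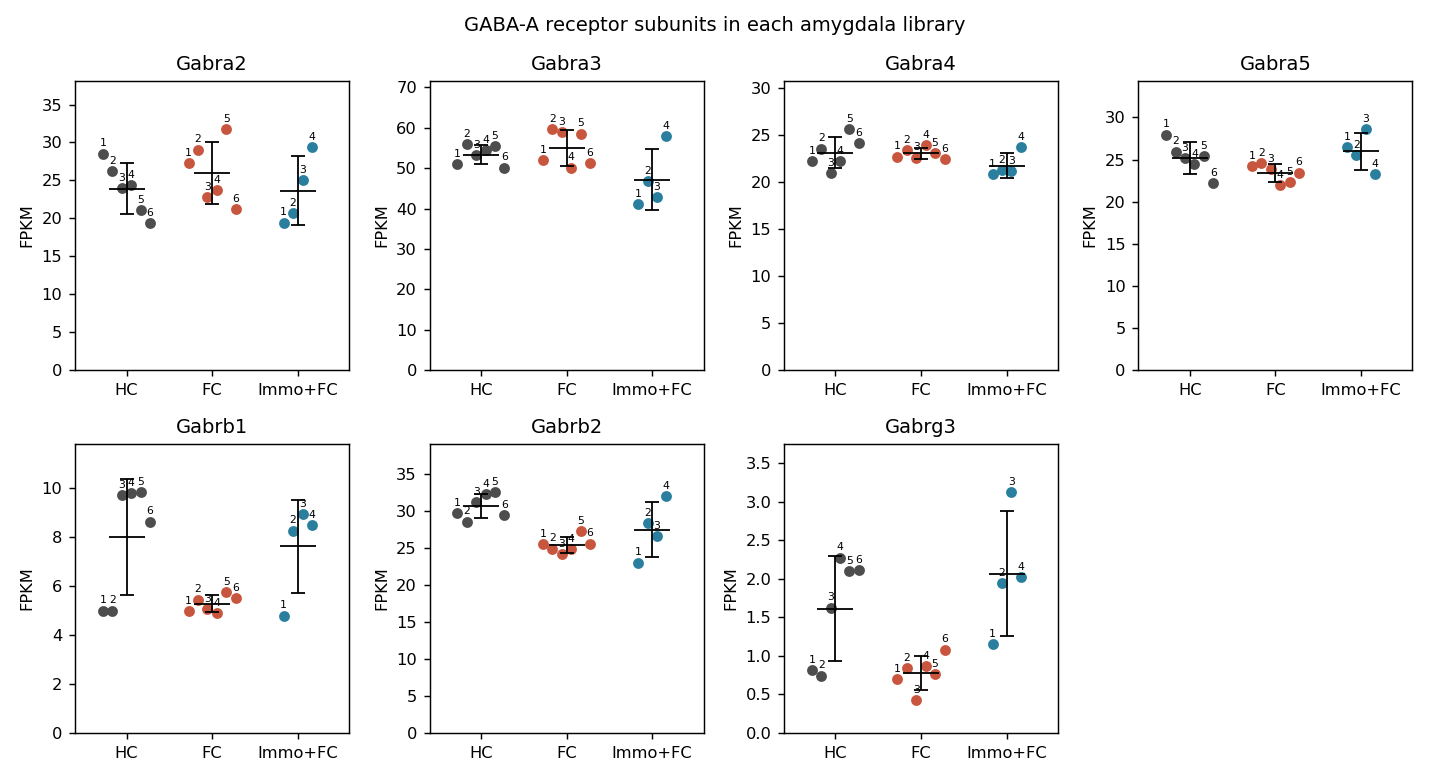
FPKM of the 7 subunits in each amygdala library, by group, with points numbered by library and bars for the mean and SD (n = 6, 6 and 4). Gabrb1 and Gabrg3 in HC libraries 1 and 2 lay within the range of FC, and Gabrb2 in FC, at 24.2 to 27.3 FPKM, lay below HC.

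The alpha subunits showed no such split. Gabra4, whose subunit joins the delta subunit in receptors outside synapses, had 20.98 to 25.7 FPKM in HC, 22.5 to 24.01 FPKM in FC and 20.9 to 23.8 FPKM in Immo+FC, with medians of 22.9, 22.95 and 21.3 FPKM. Its difference of FC from HC on the log2 scale was −0.0024 (standard error 0.047, adjusted p = 0.992 in limma). Gabra2, whose subunit is tied to the anxiety-reducing effect of benzodiazepines, had 19.4 to 28.5 FPKM in HC with a median of 24.2 and 21.2 to 31.7 FPKM in FC with a median of 25.5, and its log2 fold change was 0.12 (standard error 0.12). The groups overlapped for both genes.

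Gabra5, whose subunit carries tonic inhibition in forebrain neurons, had 22.2 to 28.0 FPKM in HC with a median of 25.3 and 21.95 to 24.5 FPKM in FC with a median of 23.7. Its log2 fold change was −0.11 (standard error 0.06, adjusted p = 0.431 in limma). Gabra3, the alpha subunit gene on the X chromosome, had 50.1 to 56.0 FPKM in HC with a median of 53.9 and 50.1 to 59.6 FPKM in FC with a median of 55.2, and its log2 fold change was 0.04 (standard error 0.07). The median log2 fold change was −0.11 over the 7 members, 2 above and 5 below 0, and 0.015 over all genes tested.

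**Figure D2:**
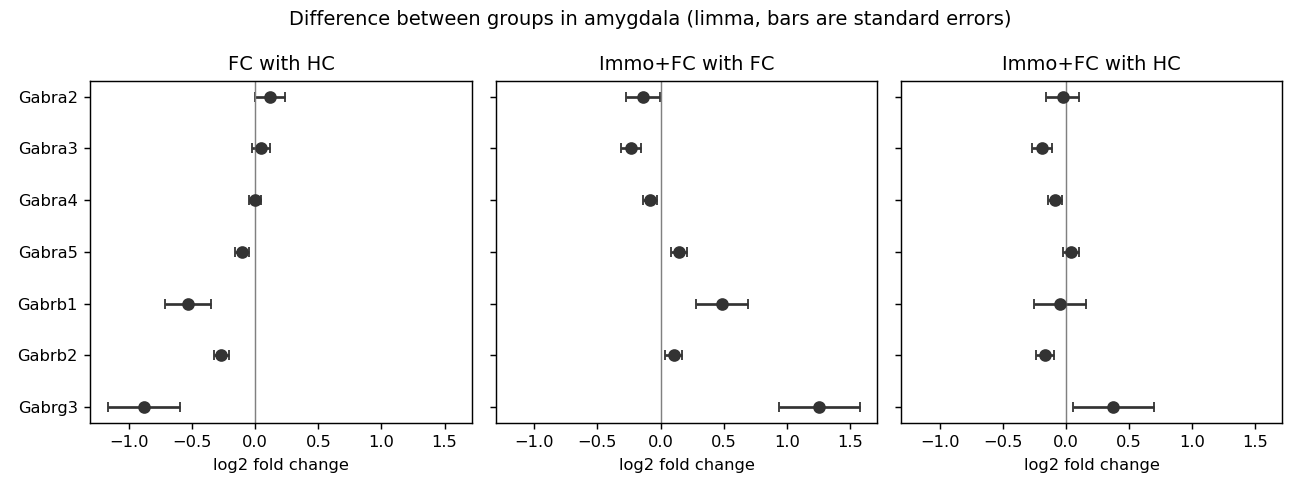
Log2 fold change of the 7 subunits in the 3 amygdala comparisons, with bars for the standard error in limma. The values that lie farthest from 0 are those of Gabrg3, −0.88 in FC with HC and 1.26 in Immo+FC with FC.

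The second comparison, Immo+FC with FC, asks what prior immobilization changed in conditioned mice. It shares the FC libraries with the comparison above, so a low FC value enters both. Gabrg3 and Gabrb1 had higher means in Immo+FC, 2.64 and 1.45 times those of FC, and Gabra3 had a lower mean, 0.86 times that of FC. No member passed an adjusted p of 0.05 in limma, where 3 genes did, 0.0222% of those tested. At an unadjusted p under 0.05 there were 4 of 7 members, 3 higher and 1 lower in Immo+FC, where 10.4% of all genes reached it.

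For Gabrg3, the 4 Immo+FC libraries, at 1.155 to 3.13 FPKM, were all above the highest FC library, at 1.08 FPKM. The lowest of them, library 1, was just past that edge. Groups that did not overlap were found for 1 of 7 members and for 2.28% of all genes. The log2 fold change was 1.26 (standard error 0.32, adjusted p = 0.182 in limma), and it was 1.495 (adjusted p = 0.0497 in limma) without Immo+FC library 1. That library had the lowest Gabrg3 level of its group and a low score of long transcripts. Leaving it out had to raise the difference, so the values without it, here and for Gabrb1 below, are no independent evidence. Without HC libraries 1 and 2, which change only the shared variance, the log2 fold change was 1.26 (adjusted p = 0.0137 in limma). Those libraries had the lowest Gabrg3 levels of HC, so leaving them out had to narrow the spread within HC. This value is no independent evidence either. Over all genes, 121 passed in that run, against 3 with all libraries.

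For Gabrb1, 3 of 4 Immo+FC libraries were above all FC libraries and library 1, at 4.79 FPKM, was below all of them. The log2 fold change was 0.49 (standard error 0.21, adjusted p = 0.414 in limma), and 0.69 (adjusted p = 0.0951 in limma) without library 1. For Gabrb2 it was 0.10 (standard error 0.07, adjusted p = 0.618 in limma).

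Gabra5 had 26.5, 25.5, 28.6 and 23.3 FPKM in Immo+FC libraries 1 to 4, of which 3 were above all FC libraries, and a log2 fold change of 0.15 (standard error 0.06, adjusted p = 0.407 in limma). Gabra3 had 41.1, 46.8, 42.8 and 57.95 FPKM, of which 3 were below all FC libraries and library 4 was within their range, and a log2 fold change of −0.23 (standard error 0.08, adjusted p = 0.313 in limma). The 5 striatum markers found summed to 224.9, 204, 244.5 and 109.5 FPKM in Immo+FC libraries 1 to 4. In FC they summed to 86.15 to 264.4 FPKM and in HC to 80.08 to 254.5 FPKM. Their part in the Gabra3 difference was not tested. Gabra2 had 19.4, 20.7, 25.1 and 29.4 FPKM, with libraries 1 and 2 below all FC libraries and the others within their range. Its log2 fold change was −0.14 (standard error 0.13), and that of Gabra4 was −0.08 (standard error 0.05). The median over the 7 members was 0.10, and −0.023 over all genes.

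In the third comparison, Immo+FC with HC, which shares its libraries with the other two, no member passed in limma, where 27 genes did, 0.2% of those tested. Gabrb2 and Gabra3 reached an unadjusted p under 0.05, both lower in Immo+FC, as 13.1% of all genes did. Their log2 fold changes were −0.16 (standard error 0.07, adjusted p = 0.316 in limma) and −0.19 (standard error 0.08, adjusted p = 0.318 in limma). Without Immo+FC library 4, Gabra3 had −0.29 (adjusted p = 0.0405 in limma). That library, at 57.95 FPKM, had the highest Gabra3 level of its group, so leaving it out had to enlarge the difference. The run is named because Gabra3 passed in it, and its value is no independent evidence. No member had groups without overlap, against 2.57% of all genes. The other members had log2 fold changes of −0.02 for Gabra2, −0.09 for Gabra4, 0.04 for Gabra5, −0.05 for Gabrb1 and 0.38 for Gabrg3. Without HC libraries 1 and 2, Gabrb1 had −0.35 (standard error 0.14, adjusted p = 0.406 in limma), Gabrg3 −0.045 and Gabra2 0.077. Without Immo+FC library 1, these values were 0.16, 0.61 and 0.063. The median was −0.05 over the members and −0.012 over all genes.

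The levels of Gabrb1 and Gabrg3 followed each other and the score of long transcripts from library to library. Over the 16 amygdala libraries, Pearson's r of the log2 values was 0.88 between Gabrb1 and Gabrg3, 0.76 between Gabrb1 and Gabrb2 and 0.58 between Gabrb2 and Gabrg3. Gabrb1 and Gabra4, whose start sites lie next to each other, had an r of 0.0099, and Gabrg3 and Gabra5, which are neighbours on chromosome 7, had 0.23. With the score, r was 0.97 for Gabrb1, which is itself 1 of the 317 genes in it, 0.93 for Gabrg3, 0.77 for Gabrb2 and −0.21 to 0.086 for the alpha subunits. These values describe libraries that share groups and form a low and a high cluster, and no test was made of them.

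**Figure D3:**
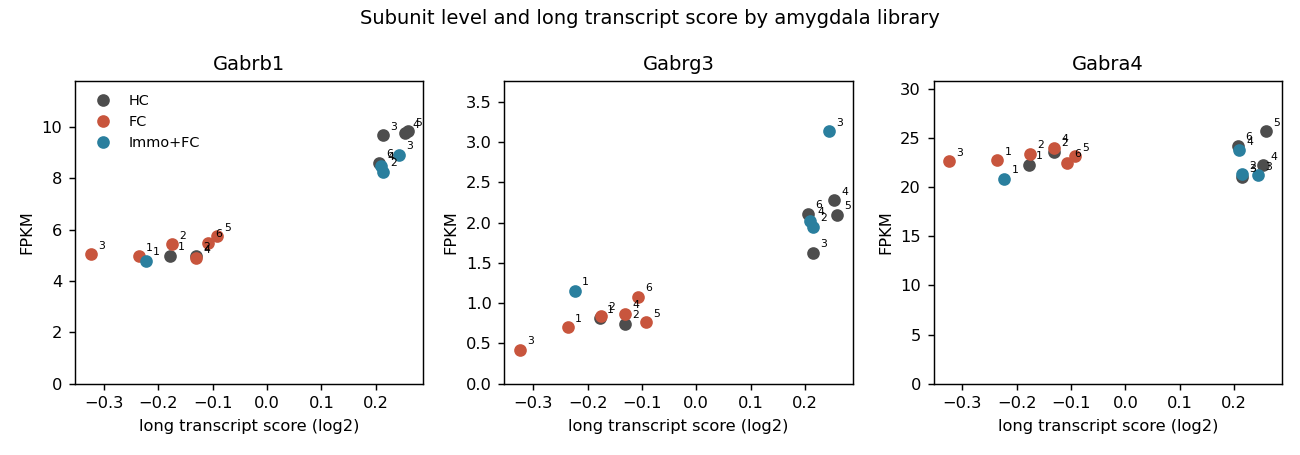
FPKM of Gabrb1, Gabrg3 and Gabra4 against the long transcript score (log2, centred) of the 16 amygdala libraries, coloured by group and numbered by library. Gabrb1 and Gabrg3 were higher in the 7 libraries with a score of 0.21 to 0.26 than in the 9 with a score of −0.32 to −0.09, and the Gabra4 values of both sets overlapped.

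The genes most alike to Gabrb1 over these libraries were Ash1l (r = 0.98), 2410089E03Rik (r = 0.98) and Mycbp2 (r = 0.98), and the longest transcripts of Ash1l and Mycbp2 have 11644 and 15233 bases. Those most alike to Gabrg3 were Amer2 (r = 0.97), Peg3 (r = 0.97) and Tnks (r = 0.96), with 10506, 8694 and 9163 bases. Faxc (r = 0.93) and Tdrd5 (r = 0.92), with 4465 and 3759 bases, were among the 3 most like Gabrb2, and the other had a longer transcript. The alpha subunits had other companions: Mpp5, Pcdh20 and AA388235 for Gabra2 (r = 0.89 to 0.91), Dync1i2, Acsl4 and Atrnl1 for Gabra3 (r = 0.91 to 0.92), Zfp654, Gpcpd1 and Prkrir for Gabra4 (r = 0.84 to 0.91) and Stard5, Cpne8 and Orai3 for Gabra5 (r = 0.76 to 0.79). Where a length was annotated, the longest transcripts of these alpha subunit companions had 2141 to 6586 bases. The genes named are the highest of 13508 genes over 16 libraries and are given as a description.

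Over all genes as well, the median difference was farthest from 0 for the longest transcripts in FC with HC and in Immo+FC with FC. The median log2 fold change of FC against HC was −0.19 for genes with a longest transcript over 10000 bases, −0.11 from 8000 to 10000 bases and 0.024 from 2000 to 4000 bases. For Immo+FC against FC these medians were 0.19, 0.066 and −0.034. For Immo+FC against HC they were −0.0058, −0.022 and −0.013. With this score added to the model, the difference of FC from HC was 0.025 (standard error 0.08) for Gabrb1, −0.06 (standard error 0.17) for Gabrg3 and −0.14 (standard error 0.06) for Gabrb2. For Immo+FC against FC it was −0.08 (standard error 0.09) for Gabrb1 and 0.42 (standard error 0.18) for Gabrg3, and none of these passed in limma. All 6 FC libraries had a negative score, so group and score cannot be told apart in full.

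**Figure D4:**
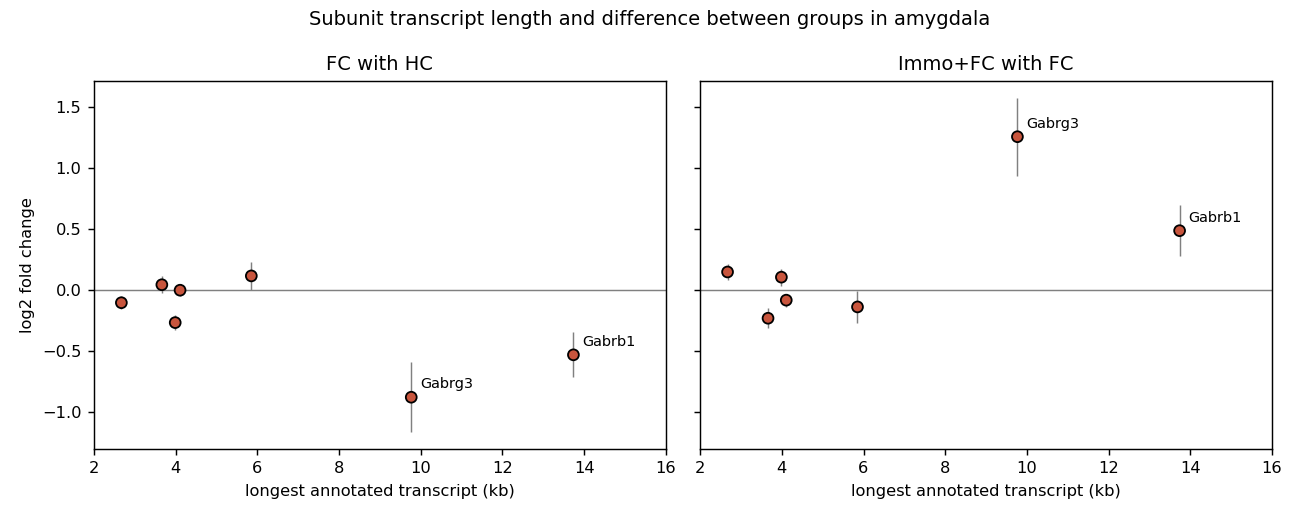
Log2 fold change with its standard error against the longest annotated transcript in kilobases, for the 7 subunit genes. Gabrg3 and Gabrb1, whose transcripts have 9767 and 13737 bases, lay farthest from 0 in both panels, at −0.88 and −0.53 for FC with HC and at 1.26 and 0.49 for Immo+FC with FC.

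The other genes of the GABA system did not pass the test either. The list held 41 genes for other receptor subunits, the GABA-B receptor, GABA synthesis and breakdown, uptake, receptor anchoring and the chloride gradient, and 34 of them were tested. None passed in limma in any of the 3 comparisons, and 4, 6 and 3 reached an unadjusted p under 0.05, against 13.1%, 10.4% and 13.1% of all genes. For the list as a whole the median difference on the log2 scale was 0.033 for FC with HC, −0.081 for Immo+FC with FC and −0.039 for Immo+FC with HC.

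Between FC and HC, Ubqln1, Trak1 and Gad1 had the smallest p-values of the list. Gad1, which makes GABA from glutamate, had 79.2 to 98.9 FPKM in HC and 89.8 to 109.8 FPKM in FC, with a log2 fold change of 0.21 (standard error 0.07, adjusted p = 0.211 in limma). Ubqln1, which stabilizes receptor subunits inside the cell, had 0.10 (standard error 0.03), and Trak1, a motor adaptor for transport along axons, had 0.16 (standard error 0.05). All 3 overlapped between groups.

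Between Immo+FC and FC, Gphn, Nlgn2 and Slc6a13 were among the 4 genes of the list with the smallest p-values. Gephyrin, from Gphn, and neuroligin 2, from Nlgn2, hold receptors at inhibitory synapses, and their log2 fold changes were −0.17 (standard error 0.05) and −0.13 (standard error 0.04). Slc6a13, a GABA transporter of the meninges, had 0.57 (standard error 0.23). The 6 choroid plexus markers, a tissue of the ventricle wall, summed to 113 to 963 FPKM in Immo+FC, 3.34 to 908 FPKM in FC and 2.75 to 1053 FPKM in HC. Their part in this difference was not tested. Zdhhc3, chosen after its values were seen, was 1 of 34 genes of the list without overlap, where 2.28% of all genes had none, at 6.76 to 7.05 FPKM in Immo+FC and 7.09 to 7.81 FPKM in FC.

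Between Immo+FC and HC, Nlgn2 had the smallest p-value of the list. It had 44.0 to 47.0 FPKM in Immo+FC and 47.8 to 53.2 FPKM in HC with no overlap, as 1 of 34 genes of the list and 2.57% of all genes, and a log2 fold change of −0.11 (standard error 0.04, adjusted p = 0.281 in limma). The 7 inhibitory neuron markers summed to 759 to 840 FPKM in HC, 745 to 943 FPKM in FC and 764 to 904 FPKM in Immo+FC, and the 5 excitatory markers to 978 to 1126, 994 to 1101 and 861 to 1034 FPKM.

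In blood the 7 subunits were near or at 0. The tissues were processed separately by the authors, so their levels are set side by side without a test. Gabrg3 was listed at 0 in all 14 blood libraries and Gabrb1 in 8. The highest blood value of any member was 1.51 FPKM, for Gabra3 in HC library 3, where amygdala libraries had 41.1 to 59.6 FPKM. Gabra3 had 0.591, 0.170, 1.51 and 0.344 FPKM in HC blood, 0 to 0.107 FPKM in FC blood and 0 to 0.232 FPKM in Immo+FC blood. Gabrb2 had 0.387, 0.0813, 0.569 and 0.494 FPKM in HC blood, 0 to 0.0566 FPKM in FC blood and 0 to 0.147 FPKM in Immo+FC blood. HC blood also held more of the neuronal marker Snap25, at 3.598 to 16.5 FPKM against 0.142 to 4.21 FPKM in FC and 0.0747 to 4.37 FPKM in Immo+FC. The part of neuronal RNA in these blood values was not tested.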

How the data were processed

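RNA of amygdala punches and of trunk blood, each from pools of 2 mice, was made into poly-A selected libraries, blood after globin depletion. STAR 2.3 was used by the authors for alignment to mm10, Cufflinks 2.1.1 for transcript models, and Cuffdiff 2.1.1 for the deposited FPKM values, tissue by tissue. Total sequences and the percent mapped to a single place come from a deposited quality table, 91.33 to 92.3% in amygdala and 60.06 to 72.59% in blood. Of 23303 entries, 272 join overlapping genes.

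Tests were made on log2(FPKM + 0.1) by limma 3.58.1 under R 4.3.3, with a variance trend and the 3 amygdala groups in 1 fit. Genes entered if their mean reached 0.5 FPKM. P-values were adjusted over all genes by the method of Benjamini and Hochberg, with 0.05 as the threshold. Counts per gene were not used here, so counting error is not given. The fit was tested on simulated data. No libraries were identical.

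The members and lists were chosen with earlier results of these data known. Named genes are all members, the 4 genes of the GABA system list with the smallest p in each comparison, and the 3 tested genes most correlated with each member. A few of these are not reported here. Alternatives were other pseudocounts, minimums and scalings, array weights, a replicate block, a length score covariate and libraries left out.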

Additional observations from a re-analysis of the deposited data

Results flagged for a closer look

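Each member was looked at in the 3 groups of both tissues, 42 groups in all. Dixon's criterion was used to find a library far from the rest of its group, and 3 were found. Gabrg3 in blood, at 0 in all 14 libraries, could not be judged. Chance meets the criterion in about 1 of 20 groups of continuous values, a rate that does not hold in blood groups with many values of 0. Gabrb1 in Immo+FC amygdala library 1, at 4.79 FPKM, was below the other 3 libraries, which reached 8.92 FPKM. Gabra4 in Immo+FC amygdala library 4, at 23.8 FPKM, was above the other 3, the lowest of which had 20.9 FPKM. Gabrb1 in Immo+FC blood library 2 had 0.101 FPKM, where the other 4 libraries were listed at 0.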

How the results depend on the processing

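The calls depended on how the libraries were weighted and on which entered. Members past the threshold were 0 in each comparison. With array weights they were 3 for FC with HC (Gabrb1, Gabrb2 and Gabrg3) and 1 for Immo+FC with FC (Gabrg3), and without HC libraries 1 and 2 again 3 and 1. Leaving out each library in turn gave 0 to 1 in each comparison: Gabrb2 for FC with HC and Gabrg3 for Immo+FC with FC without Immo+FC library 1, and Gabra3 for Immo+FC with HC without Immo+FC library 4. No gene of the GABA system list passed under any alternative run. For FC with HC and Immo+FC with FC, the counts over all genes also rose with array weights and without HC libraries 1 and 2. Those counts are given below, and the member counts are to be read beside them. FPKM values carry no depth per gene, so limits set by depth are unknown.

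Genes past the threshold over the whole table were 2 for FC with HC, 3 for Immo+FC with FC and 27 for Immo+FC with HC. For FC with HC they were 1 with no minimum value, 500 with array weights, 1 with the score of long transcripts in the model and 357 without HC libraries 1 and 2. For Immo+FC with FC they were 69 in a fit of only these groups, 171 with array weights, 121 without HC libraries 1 and 2 and 1 without Immo+FC libraries 1 and 2. For Immo+FC with HC they were 6 with no minimum value, 0 in a fit of only these groups, 16 with array weights, 2 without HC libraries 1 and 2 and 0 without Immo+FC libraries 1 and 2. Leaving out each library gave 1 to 143, 1 to 144 and 0 to 148, with the highest counts without HC library 1, Immo+FC library 1 and Immo+FC library 4. Where fewer libraries entered, the variance was estimated from fewer, and otherwise the cause was not tested.

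The replicate numbers of the labels did not pair the libraries, since same-numbered libraries had correlations of −0.257 to 0.310 and 4 of 16 correlated best with their own number. With the replicate block, genes past the threshold were 160, 62 and 0, and members 1 (Gabrb2), 0 and 0.

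Some log2 fold changes of members changed sign. For FC with HC, Gabra4 was 0.0027 with array weights and 0.030 with the long transcript score, and Gabrb1, which passed below 0 with array weights and without HC libraries 1 and 2, was 0.025 with that score. For Immo+FC with FC, the score gave −0.085 for Gabrb1 and −0.028 for Gabrb2, and Gabra2 was 0.077 without Immo+FC libraries 1 and 2. For Immo+FC with HC, Gabra2 was 0.0090 with array weights, 0.077 without HC libraries 1 and 2 and 0.19 without Immo+FC libraries 1 and 2. Gabrb1 was 0.043 there with the replicate block and 0.18 without Immo+FC libraries 1 and 2, and Gabrg3 was −0.045 without HC libraries 1 and 2. Leaving out each library moved Gabra4 in FC with HC from −0.030 to 0.028, and in Immo+FC with HC it moved Gabra2 from −0.14 to 0.063, Gabrb1 from −0.17 to 0.16 and Gabra5 from −0.0054 to 0.093.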
